A study of Caenorhabditis elegans with 6 samples.

Results

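AMP-activated protein kinase (AMPK) is a 3-part enzyme that cells switch on when their energy runs low. The genes described here encode its subunits in Caenorhabditis elegans and the kinase complex that switches it on. They were taken by symbol from the deposited table: the alpha subunit genes aak-1 and aak-2, the beta subunit genes aakb-1 and aakb-2, the gamma subunit genes aakg-1, aakg-2, aakg-4 and aakg-5, and the upstream genes par-4 and strd-1. All 10 were found among the 46254 genes with values, and all 10 passed the filter on low counts that left 14378 genes to test.

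In AMPK generally the alpha subunit is the catalytic one, and the beta subunit holds the complex together. The gamma subunit generally binds AMP, ADP and ATP and so senses the energy state, which need not hold for every worm gamma protein. PAR-4, the worm LKB1 kinase, works with the pseudokinase STRD-1, the worm STRAD, and phosphorylates the activation loop of the alpha subunit. In worms aak-2 is known for its part in the long life of animals with low insulin-like signalling, and aakg-4 has been described as a direct target of DAF-16, the transcription factor that is released when the insulin-like receptor DAF-2 is turned down. These are background facts and were not measured here, since RNA levels carry no information on phosphorylation or kinase activity.

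RNA was sequenced from whole animals of strain CF512 on day 1 of adulthood. Eggs were put on bacteria that carried the empty RNAi vector, or bacteria for RNA interference (RNAi) against daf-2, the insulin-like receptor gene, or against cav-1, a caveolin gene. All groups, controls included, shared the strain and 48 hours at 25 °C, which made the animals sterile. CF512 carries temperature-sensitive mutations, so the animals make oocytes but no working sperm. Each of 3 groups had 2 libraries from 2 biological repeats, and each repeat held 1 library of every group. RNAi by feeding is not limited to 1 tissue. Neurons of wild-type worms are known to respond weakly to it, and how strongly each tissue of this strain responded was not measured. The labels do not say how many animals a library pooled, and in whole animals fewer cells of a type and less RNA per cell cannot be told apart.

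Levels are given as CPM (counts per 1000000 of a library's total, divided by a TMM scaling factor for each library, 0.922 to 1.04). Fold changes are differences of log2(CPM + 1), with the repeat as a term of the model. Benjamini-Hochberg adjustment ran over all genes tested and a gene was called at an adjusted p under 0.05. Library totals lay between 25474328 and 32886440 counts. Below, the empty-vector libraries are the controls, the others are the daf-2 and cav-1 libraries, and a pair of levels gives repeat 1 and then repeat 2. The daf-2 level was 42.6 and 188 CPM in the controls, 26.4 and 30.6 CPM in the daf-2 libraries, and 57.9 and 214 CPM in the cav-1 libraries (log2 change under daf-2 RNAi -1.63, limma adjusted p = 0.0300). That call was lost when any of 4 libraries was left out: repeat 2 of daf-2 RNAi (log2 change -0.73, limma adjusted p = 0.427), repeat 2 of the empty vector (-1.09, 0.113), or repeat 1 or 2 of cav-1 RNAi (-1.63 both times, 0.0668 and 0.0744). It was also lost with genes of low count kept (0.133) and with the trend on transcript length removed (0.0622). The cav-1 level was 178 and 184 CPM in the controls, 6.13 and 1.84 CPM in the cav-1 libraries, and 42.7 and 21.2 CPM in the daf-2 libraries, so it was also lower in the daf-2 libraries (log2 change -2.55, limma adjusted p = 0.00191). Sperm markers were at or near 0, with summed levels of 1.30 to 3.09 CPM over 8 genes and msp-142 at 0 in every library, while all 12 germline and oocyte markers were tested and summed to between 2062 and 8592 CPM. The repeats differed widely: 3622 genes were called higher in repeat 2 than in repeat 1 and 4653 lower.

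Every gene of the complex was read by at least 293 counts in every library, the lowest being aakg-4 in repeat 1 of cav-1 RNAi. To compare genes with one another, levels were divided by the length of the longest annotated transcript. On this scale, as means ± SD over the 6 libraries, aakg-5 stood first with 48.3 ± 10.5 CPM per kb, followed by par-4 with 46.6 ± 15.3 and strd-1 with 34.4 ± 8.8. The beta genes aakb-1 (30.5 ± 11.1 CPM per kb) and aakb-2 (24.5 ± 4.0) came next. Then followed aak-2 (19.6 ± 7.6 CPM per kb), aakg-1 (18.9 ± 5.3) and aak-1 (18.7 ± 6.3), and last aakg-2 (12.02 ± 3.8) and aakg-4 (10.9 ± 6.6). Only 2 steps in this order held in all 6 libraries, par-4 above strd-1 and aak-1 above aakg-2. Each of the other neighbours changed places in at least 2 libraries, so aakg-5 and par-4, and likewise aak-2, aakg-1 and aak-1, did not differ beyond their spread. Among all tested genes with a length, the 10 levels per kb lay between the 50.5th percentile for aakg-4 and the 76.6th percentile for aakg-5.

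**Figure D1:**
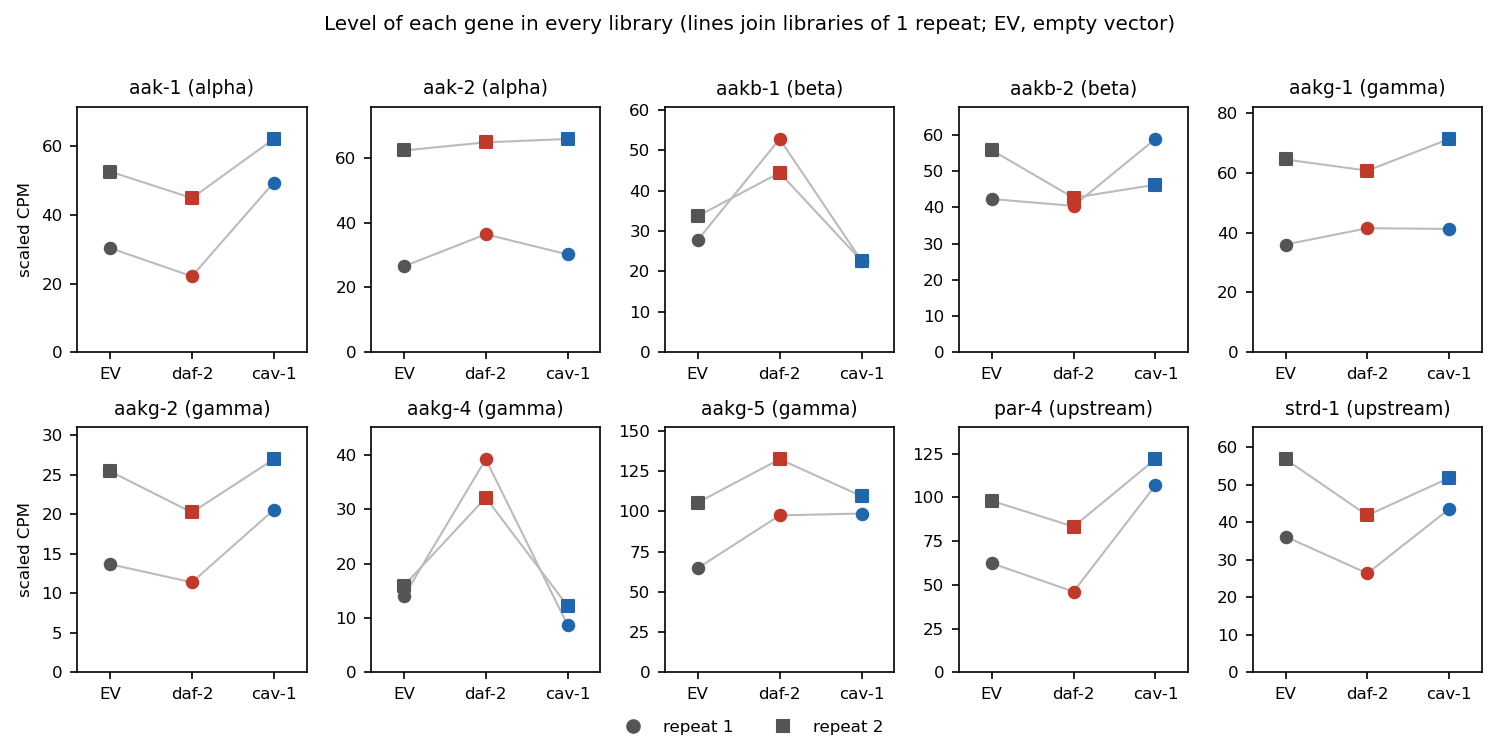
Level of each of the 10 genes (scaled CPM, y axis from 0) in every library, by RNAi group; circles are repeat 1, squares repeat 2 and lines join libraries of the same repeat. In both repeats aakg-4 and aakb-1 are highest under daf-2 RNAi, while aak-1, aakb-2, aakg-2, par-4 and strd-1 are lowest there.

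The gamma subunit gene aakg-4 was the one gene of the 10 that was called under daf-2 RNAi against the empty vector, and it was higher there. Its level was 14.0 and 15.9 CPM in the controls, 39.2 and 32.1 CPM in the daf-2 libraries, and 8.68 and 12.2 CPM in the cav-1 libraries. The daf-2 libraries stood above all 4 others and the cav-1 libraries below all 4 others, with no overlap between any 2 groups. With 2 libraries per group such a separation, here and below, is no test. How many of all genes tested show it was not computed. Under daf-2 RNAi against the empty vector the log2 change of aakg-4 was 1.19 ± 0.28 (SE, n = 2 per group; 95% interval 0.58 to 1.81, limma adjusted p = 0.0268), with 1.42 in repeat 1 and 0.97 in repeat 2. Of the 10 genes, 1 was called in this comparison, beside 7.44% of all genes tested (620 higher and 450 lower). The call was lost without repeat 1 of daf-2 RNAi (log2 change 0.90, limma adjusted p = 0.366) and when genes of low count were kept in the fit (1.19, limma adjusted p = 0.0848). Without the repeat as a term no tested gene passed in any comparison, and the limma adjusted p of aakg-4 was then 0.917.

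Between the RNAi treatments aakg-4 also differed most of the 10. Its level under cav-1 RNAi was lower than under daf-2 RNAi by a log2 change of -1.69 ± 0.28 (SE; 95% interval -2.30 to -1.08, limma adjusted p = 0.00491), with -2.05 in repeat 1 and -1.33 in repeat 2. This call was lost without repeat 1 of cav-1 RNAi (-1.44, limma adjusted p = 0.105) or repeat 1 of daf-2 RNAi (-1.40, 0.0532), and without the repeat term (0.605). Under cav-1 RNAi against the empty vector the log2 change was -0.50 (95% interval -1.11 to 0.11, limma adjusted p = 0.977), which did not pass although both libraries lay below both controls. In the authors' deposited table the log2 change of aakg-4 was 1.05 for daf-2 RNAi against the empty vector (adjusted p = 0.00358) and -1.49 for cav-1 against daf-2 RNAi (adjusted p = 5.03e-06).

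The other gamma genes did not pass in either comparison with the empty vector. The aakg-5 level was 64.8 and 105.5 CPM in the controls, 97.5 and 132.4 CPM in the daf-2 libraries, and 98.7 and 109.5 CPM in the cav-1 libraries. Within each repeat the control library was the lowest, but the groups overlapped because repeat 2 was higher than repeat 1 (log2 change under daf-2 RNAi 0.45, limma adjusted p = 0.2496). The aakg-1 level was 36.1 and 64.5 CPM in the controls, 41.5 and 60.8 CPM in the daf-2 libraries, and 41.3 and 71.4 CPM in the cav-1 libraries. Its libraries split by repeat, with all of repeat 2 above all of repeat 1, and it had log2 changes of 0.06 under daf-2 RNAi (95% interval -0.45 to 0.57) and 0.17 under cav-1 RNAi (-0.34 to 0.68). The sign of the daf-2 value turned with scaling by size factors (-0.02). The aakg-2 level was 13.7 and 25.4 CPM in the controls, 11.4 and 20.2 CPM in the daf-2 libraries, and 20.5 and 26.9 CPM in the cav-1 libraries. Its order within each repeat was thus the reverse of that of aakg-4, with daf-2 RNAi lowest and cav-1 RNAi highest. The difference between the treatments (log2 change 0.60, 95% interval 0.02 to 1.18) did not pass (limma adjusted p = 0.129). In the authors' deposited table that difference was 0.66 with an adjusted p of 0.0461.

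The beta subunit gene aakb-1 was lower under cav-1 RNAi than under daf-2 RNAi. Its level was 27.8 and 33.7 CPM in the controls, 52.8 and 44.4 CPM in the daf-2 libraries, and 22.6 CPM in both cav-1 libraries. The 3 groups did not overlap, in the same order as for aakg-4. Between the treatments the log2 change was -1.06 ± 0.25 (SE; 95% interval -1.62 to -0.51, limma adjusted p = 0.0252), with -1.19 in repeat 1 and -0.94 in repeat 2. The call was lost without repeat 1 of cav-1 RNAi, repeat 1 of daf-2 RNAi or repeat 2 of daf-2 RNAi. A fit without 1 library also has 1 residual degree of freedom in place of 2, so the loss need not come from that library's value. Over all alternatives the log2 change lay between -1.25 and -0.87. With genes of low count kept the limma adjusted p was 0.0666, and without the repeat term 0.902. Against the empty vector neither change passed: 0.65 under daf-2 RNAi (95% interval 0.09 to 1.198, limma adjusted p = 0.153) and -0.42 under cav-1 RNAi (95% interval -0.97 to 0.13, limma adjusted p = 0.977).

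The second beta gene, aakb-2, did not pass in any comparison. Its level was 42.3 and 55.8 CPM in the controls, 40.4 and 42.7 CPM in the daf-2 libraries, and 58.9 and 46.3 CPM in the cav-1 libraries. The log2 change was -0.22 under daf-2 RNAi (95% interval -0.79 to 0.34) and 0.10 under cav-1 RNAi (-0.46 to 0.66), and the cav-1 value was 0.47 in repeat 1 and -0.27 in repeat 2. Both intervals leave out a change of the size seen for aakg-4 under daf-2 RNAi.

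The alpha genes did not pass in any comparison. The aak-2 level was 26.5 and 62.3 CPM in the controls, 36.4 and 64.9 CPM in the daf-2 libraries, and 30.2 and 65.9 CPM in the cav-1 libraries. Its libraries split by repeat, with every library of repeat 2 above every library of repeat 1, and its log2 change was 0.25 under daf-2 RNAi (95% interval -0.28 to 0.77) and 0.13 under cav-1 RNAi (-0.39 to 0.66). The aak-1 level was 30.4 and 52.7 CPM in the controls, 22.1 and 44.9 CPM in the daf-2 libraries, and 49.4 and 62.2 CPM in the cav-1 libraries. Both cav-1 libraries lay above both daf-2 libraries, and within each repeat the control lay between them. The log2 difference between the treatments was 0.79 ± 0.25 (SE; 95% interval 0.23 to 1.35) with a limma adjusted p of 0.0648. It passed with size factors in place of the main scaling (0.89, limma adjusted p = 0.0256), with scaling factors from all genes with a count (0.83, 0.0232), and without repeat 2 of cav-1 RNAi (1.07, 0.0223). In the authors' deposited table it was 0.83 with an adjusted p of 0.00891.

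The kinase gene par-4 was higher under cav-1 RNAi than under daf-2 RNAi. Its level was 62.4 and 98.1 CPM in the controls, 46.1 and 83.3 CPM in the daf-2 libraries, and 107 and 122 CPM in the cav-1 libraries. The cav-1 libraries stood above all 4 others, whereas the control and daf-2 libraries overlapped across repeats. Between the treatments the log2 change was 0.87 ± 0.24 (SE; 95% interval 0.34 to 1.40, limma adjusted p = 0.0448), with 1.195 in repeat 1 and 0.54 in repeat 2. Against the empty vector the change under cav-1 RNAi was 0.54 (95% interval 0.01 to 1.07), which had an unadjusted p of 0.0479 and a limma adjusted p of 0.977. The call between the treatments was lost with the trend on transcript length removed (limma adjusted p = 0.0689), with genes of low count kept (0.0977), without the repeat term (0.903), and without repeat 1 of cav-1 RNAi (log2 change 0.59, 0.200), repeat 1 of daf-2 RNAi (0.66, 0.454) or repeat 2 of daf-2 RNAi (1.08, 0.107).

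The partner gene strd-1 did not pass in any comparison. Its level was 36.2 and 56.8 CPM in the controls, 26.4 and 41.8 CPM in the daf-2 libraries, and 43.6 and 51.8 CPM in the cav-1 libraries. Under daf-2 RNAi the log2 change was -0.44 in repeat 1 and -0.43 in repeat 2 (95% interval of the fit -0.97 to 0.10, limma adjusted p = 0.277). Under cav-1 RNAi it was 0.26 and -0.13. Between the treatments it was 0.50 (limma adjusted p = 0.157), which passed without repeat 2 of cav-1 RNAi (0.70, limma adjusted p = 0.0483). Per kb the ratio of par-4 to strd-1 was 1.16 in both controls, 1.17 and 1.33 in the daf-2 libraries, and 1.64 and 1.57 in the cav-1 libraries, which held the highest ratios.

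**Figure D2:**
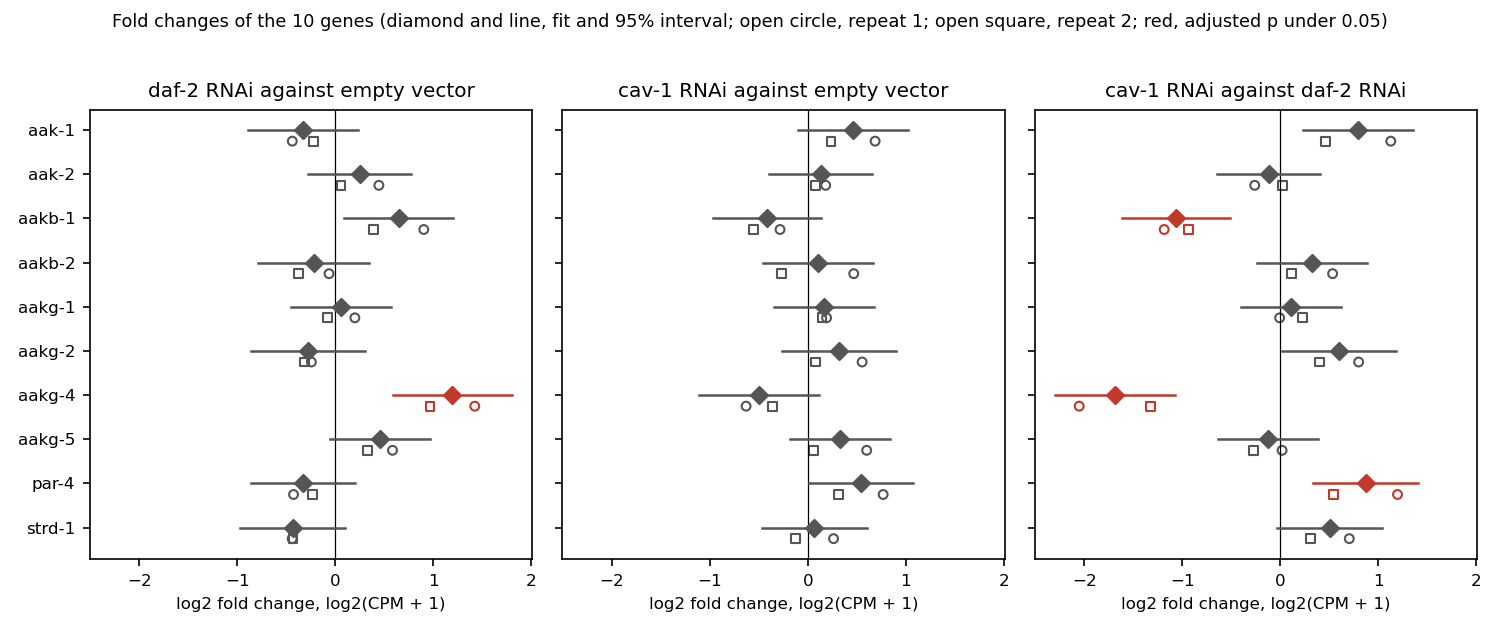
Log2 fold change of each gene, as differences of log2(CPM + 1), in the 3 comparisons; diamonds and lines are the fit and its 95% interval, open circles repeat 1, open squares repeat 2, and red marks an adjusted p under 0.05. Only aakg-4 is red for daf-2 RNAi against the empty vector (1.19), none is for cav-1 RNAi against the empty vector, and aakb-1 (-1.06), aakg-4 (-1.69) and par-4 (0.87) are for cav-1 against daf-2 RNAi.

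Across the 10 genes, none was called for cav-1 RNAi against the empty vector, where 1 of all genes tested (0.00696%), cav-1 itself, was called, 573 had an unadjusted p under 0.05 and the authors' deposited table called 81. The cav-1 call was lost without repeat 2 of cav-1 RNAi (log2 change -4.90, limma adjusted p = 0.121). The 95% intervals of the 10 genes in that comparison ran from -1.11 at the lowest (aakg-4) to 1.07 at the highest (par-4). For cav-1 against daf-2 RNAi, 3 of the 10 were called, 1 higher and 2 lower, beside 10.6% of all genes tested (538 higher and 988 lower). With size factors that split of all genes became 1936 higher and 1206 lower. The median log2 change of the 10 was -0.08 for daf-2 RNAi against the empty vector, where that of all genes was -0.05. It was 0.15 for cav-1 RNAi against the empty vector (all genes -0.01) and 0.22 for cav-1 against daf-2 RNAi (all genes -0.01). The comparisons share libraries, so their values for the same gene are not independent.

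Because single genes of a subunit class moved in different directions, the make-up of each class was computed from the levels per kb. The share of aakg-4 in the summed level of the 4 gamma genes was 12.6% and 8.75% in the controls, 23.5% and 15.01% in the daf-2 libraries, and 5.88% and 6.47% in the cav-1 libraries. These shares did not overlap between groups. The share of aakg-5 was 51.5% to 59.5% over the 6 libraries, the largest of the 4 in each. The share of aakb-1 in the summed level of the beta genes was 53.5% and 51.4% in the controls, 69.6% and 64.6% in the daf-2 libraries, and 40.2% and 46.1% in the cav-1 libraries. Per kb, the ratio of aakb-1 to aakb-2 was 1.149 and 1.057 in the controls, 2.29 and 1.82 in the daf-2 libraries, and 0.673 and 0.857 in the cav-1 libraries. Which of the beta genes is the higher one depends on the transcript lengths used, since in CPM aakb-1 was below aakb-2 in the controls too. The order of the groups does not, as a length is the same in every library. The share of aak-2 in the alpha genes was 45.7% and 53.2% in the controls, 61.3% and 58.1% in the daf-2 libraries, and 37.0% and 50.5% in the cav-1 libraries. Here the daf-2 libraries were the highest, and the control and cav-1 libraries overlapped. With 2 libraries per group these shares were not tested, and an exact permutation test of 2 against 2 could not reach 0.05.

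**Figure D3:**
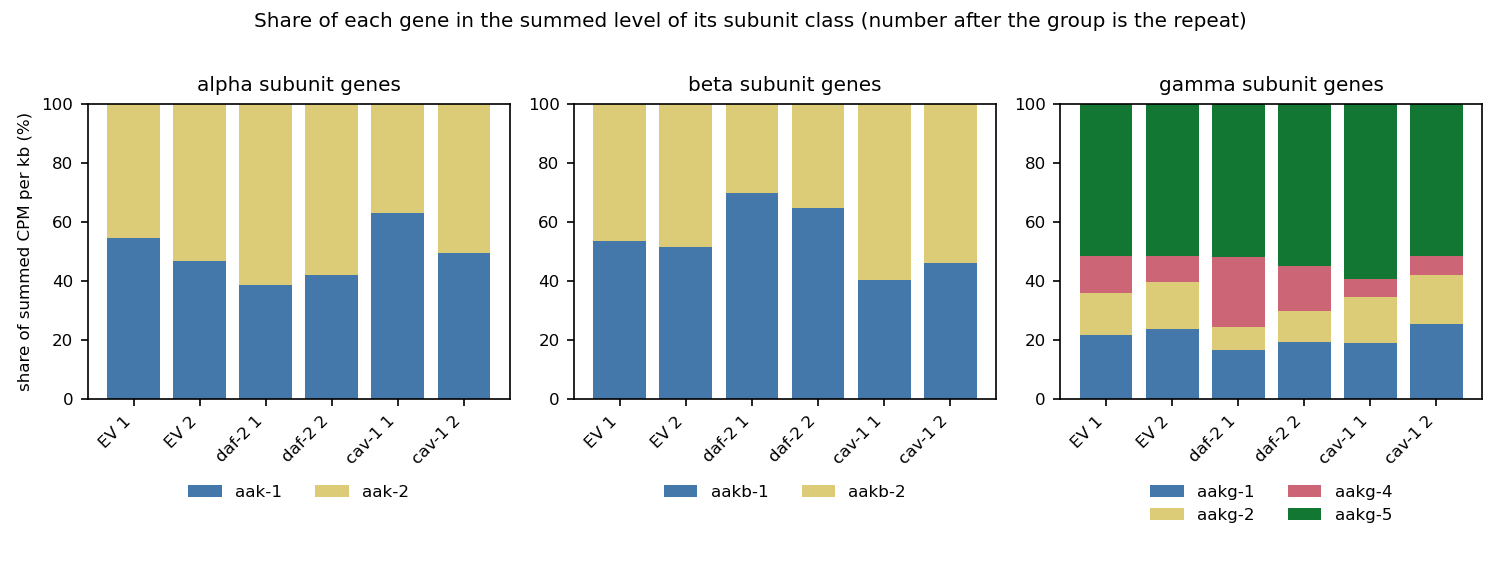
Share of each gene in the summed level per kb of its subunit class (%, y axis), 1 bar per library, for the alpha, beta and gamma genes. The aakg-4 share is 15.01% and 23.5% in the daf-2 libraries and 5.88% to 12.6% in the other 4, and the aakb-1 share is 64.6% and 69.6% in the daf-2 libraries and 40.2% to 53.5% in the others.

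The summed level of a class followed the repeat more than the treatment for the alpha genes, whose sum was 23.9, 24.5 and 33.6 CPM per kb in repeat 1 and 48.2, 45.9 and 53.7 in repeat 2 (control, daf-2 and cav-1 library in that order). For the gamma genes the sum was 59.7, 89.3 and 79.1 CPM per kb in repeat 1 and 97.5, 114.5 and 100.8 in repeat 2, lowest in the control of each repeat. For the beta genes it was 46.6, 68.1 and 50.5 CPM per kb in repeat 1 and 58.9, 61.7 and 44.0 in repeat 2, highest under daf-2 RNAi in both.

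Of the 10 genes, 6 were called between the repeats, all of them higher in repeat 2, beside 57.6% of all genes tested called in either direction, 3622 of the 14378 being higher. The catalytic gene aak-2 had the largest of these differences, 1.04 ± 0.19 on the log2 scale (SE, limma adjusted p = 0.00120), followed by aakg-1 with 0.71 (0.00851), aak-1 with 0.70 (0.0150), aakg-2 with 0.67 (0.0217), par-4 with 0.56 (0.0324) and strd-1 with 0.51 (0.0460). Not called between repeats were aakg-4 (0.11) and aakb-1 (0.01), the genes that changed most with treatment, and also aakb-2 (0.04) and aakg-5 (0.43). With the trend on transcript length removed, 2 of the 10 were called. Without either daf-2 library 2 were called, and without either control 1. The labels give no date or run for the repeats.

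Other genes known to act with AMPK were read from lists of named genes. The list of the LKB1 complex and other regulators held mop-25.1, mop-25.2, mop-25.3, ckk-1, flcn-1 and also aakg-3, a further gamma subunit gene. Of these 6 none passed against the empty vector, and 2 were higher under cav-1 than under daf-2 RNAi, where 10.6% of all genes tested were called. One of them is mop-25.2, a worm MO25, the scaffold that joins LKB1 and STRAD. Its level was 57.8 and 53.1 CPM in the controls, 36.7 and 42.9 CPM in the daf-2 libraries, and 83.6 and 65.8 CPM in the cav-1 libraries, with no overlap between groups. The log2 difference between the treatments was 0.89 (SE 0.24, limma adjusted p = 0.0425), in the same direction as that of par-4. The other is flcn-1, the worm folliculin, which in worms and mammals is known as a negative regulator of AMPK. Its level was 50.0 and 74.6 CPM in the controls, 24.1 and 62.3 CPM in the daf-2 libraries, and 80.5 and 90.2 CPM in the cav-1 libraries, so that the cav-1 libraries were the highest (log2 difference between the treatments 1.11, SE 0.29, limma adjusted p = 0.0361). Both calls were lost without repeat 1 of cav-1 RNAi (limma adjusted p = 0.198 for mop-25.2 and 0.256 for flcn-1) and without repeat 1 of daf-2 RNAi (0.468 and 0.492). That of mop-25.2 was also lost without repeat 2 of daf-2 RNAi (0.104). With genes of low count kept the values were 0.0898 and 0.106, with the length trend removed 0.0552 and 0.0914, and without the repeat term 0.903 for both.

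Among 18 downstream targets and partners, 1 was called under daf-2 RNAi and between the treatments, where 7.44% and 10.6% of all genes tested were called, and none under cav-1 RNAi against the empty vector. The gene pod-2 encodes acetyl-CoA carboxylase, the fatty acid synthesis enzyme that AMPK is known to inhibit by phosphorylation. Its level was 359 and 757 CPM in the controls, 985 and 1485 CPM in the daf-2 libraries, and 343 and 830 CPM in the cav-1 libraries. Both daf-2 libraries lay above all 4 others. Against the empty vector the log2 change was 1.21 ± 0.23 (SE; limma adjusted p = 0.0123), with 1.45 in repeat 1 and 0.97 in repeat 2, and without repeat 1 of daf-2 RNAi it was 0.92 (limma adjusted p = 0.146). Under cav-1 RNAi it was 0.03 against the empty vector and -1.18 against daf-2 RNAi (limma adjusted p = 0.0122). The last call was lost without repeat 1 of cav-1 RNAi (-0.96, limma adjusted p = 0.170) or repeat 1 of daf-2 RNAi (-0.89, 0.154). With genes of low count kept the limma adjusted p was 0.0834 for daf-2 RNAi against the empty vector and 0.0771 between the treatments, and without the repeat term 0.991 and 0.903.

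The other 17 did not pass in any of the 3 comparisons. For crtc-1, a CREB coactivator that AAK-2 is known to phosphorylate, the log2 change was 0.08 under daf-2 RNAi (95% interval -0.47 to 0.64) and -0.08 under cav-1 RNAi (-0.64 to 0.48). For crh-1, the worm CREB gene, it was 0.03 (-0.52 to 0.57) and 0.30 (-0.24 to 0.85). For unc-51, the worm gene of the autophagy kinase ULK, it was 0.00 (-0.52 to 0.52) and -0.18 (-0.70 to 0.34). These intervals leave out a change of the size seen for pod-2 in the daf-2 comparison.

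The 4 AMPK-related kinases that LKB1 is known to act on (par-1, sad-1, kin-29 and unc-82) held no called gene, with a median log2 change of 0.35 with daf-2 RNAi and, with cav-1 RNAi, 0.14. The list of 6 polarity genes of the early embryo (par-1, which is also in the kinase list, par-2, par-3, par-5, par-6 and pkc-3) held none either. Of all genes tested 7.44% were called under daf-2 RNAi, 0.00696% under cav-1 RNAi and 10.6% between the treatments. The median of the polarity genes was -0.32 under daf-2 RNAi, 0.11 under cav-1 RNAi and 0.49 between the treatments, with all 6 above 0 in the last comparison. The value for par-4 between the treatments, 0.87, was thus of the same sign as that of these 6 genes, and the medians of all genes were -0.05, -0.01 and -0.01.

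**Figure D4:**
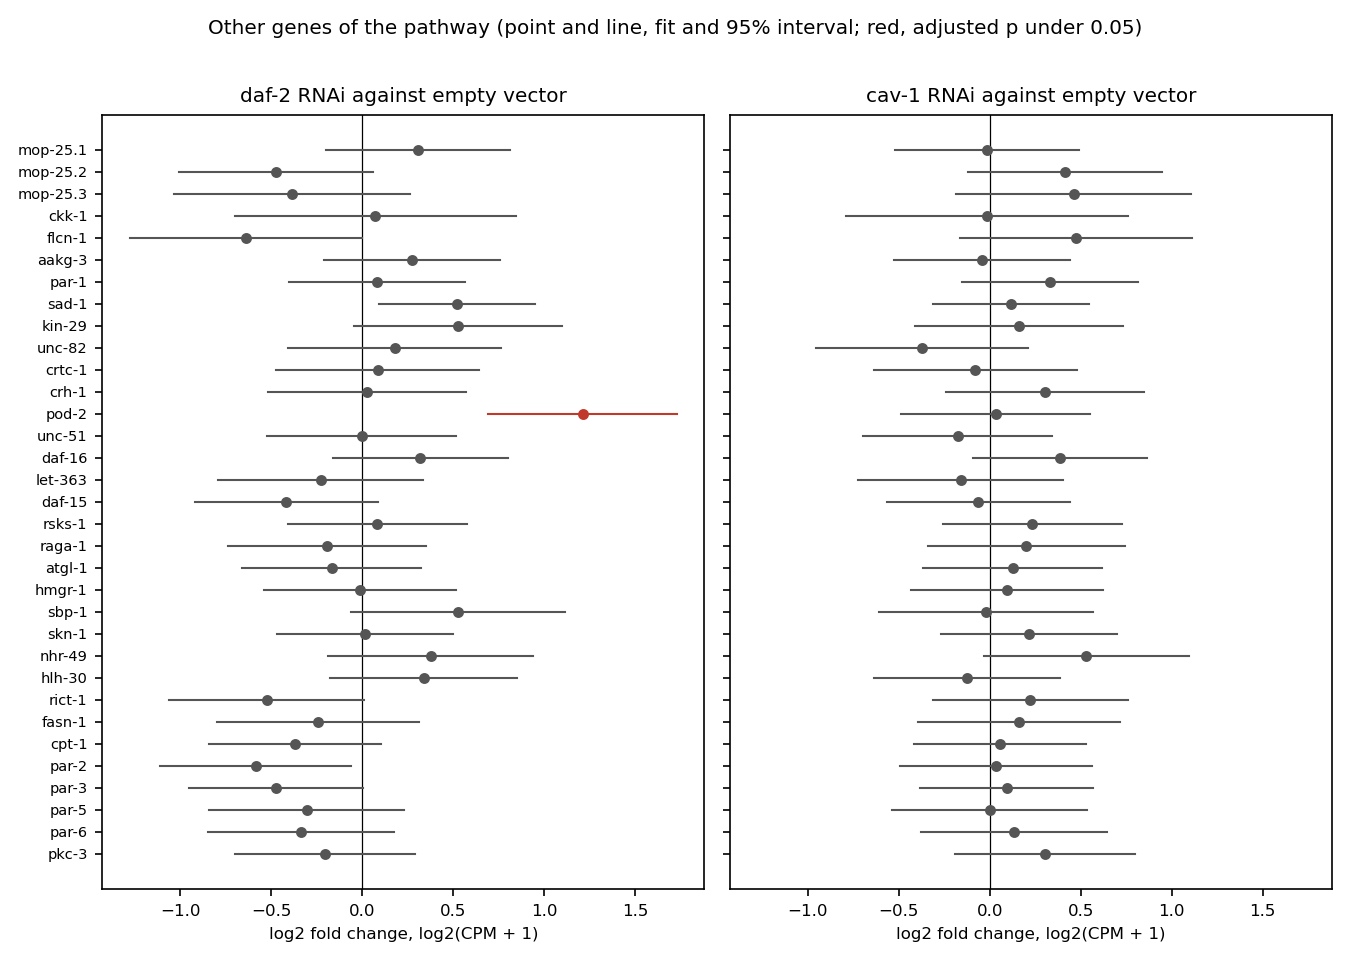
Log2 fold change, as differences of log2(CPM + 1), of the other genes of the pathway lists under daf-2 RNAi (left) and cav-1 RNAi (right) against the empty vector; points and lines are the fit and its 95% interval, and red marks an adjusted p under 0.05. Of all genes shown, pod-2 under daf-2 RNAi (1.21) is the one in red.

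Marker genes of several tissues moved between the groups as well. The germline and oocyte markers had a median log2 change of -0.55 under daf-2 RNAi, with 12 of 12 below 0 and none called, and of 0.61 between cav-1 and daf-2 RNAi, with 12 of 12 above 0. Their summed level was 3023 and 8592 CPM in the controls, 2062 and 5983 CPM in the daf-2 libraries, and 3610 and 7934 CPM in the cav-1 libraries. It was thus lowest under daf-2 RNAi in each repeat and higher in repeat 2 than in repeat 1, an order that par-4, strd-1, aak-1 and aakg-2 also had with respect to daf-2 RNAi and the repeat. The neuron markers had a median of 0.51 under daf-2 RNAi with 10 of 10 above 0, the body wall muscle markers 0.46 with 8 of 8 above 0, and the pharynx markers 0.87 with 5 of 5 above 0. That was the direction of aakg-4 and aakb-1, and also of aakg-5 (0.45), aak-2 (0.25) and aakg-1 (0.06). Of these only aakg-4 was called, and the other 5 of the 10 genes were below 0. In the daf-2 comparison the pharynx myosin gene myo-1 was the one called in the neuron, body wall muscle and pharynx lists, where 7.44% of all genes tested were called. Between cav-1 and daf-2 RNAi, where aakg-4 and aakb-1 were called lower, the medians were -0.59 for neuron, -0.73 for body wall muscle and -0.66 for pharynx markers, with every marker below 0. Called lower there were ric-4 (neuron), unc-15 and mlc-3 (body wall muscle), and myo-1 and myo-2 (pharynx), beside 6.87% of all genes tested. The neuron markers summed to 190.5 and 223 CPM in the controls, 253 and 303 CPM in the daf-2 libraries, and 180.1 and 238 CPM in the cav-1 libraries. The pharynx markers summed to 32.2 and 149 CPM in the controls, 39.8 and 249 CPM in the daf-2 libraries, and 26.6 and 172 CPM in the cav-1 libraries. The body wall muscle markers summed to 6120 and 4282 CPM in the controls, 7632 and 6492 CPM in the daf-2 libraries, and 4728 and 3927 CPM in the cav-1 libraries. Within each repeat the body wall muscle sum was highest under daf-2 RNAi and lowest under cav-1 RNAi, the order of aakg-4 and aakb-1. The neuron and pharynx sums had that order in repeat 1 only, as in repeat 2 their cav-1 library lay above the control. The intestine markers went both ways under daf-2 RNAi, with a median of -0.06, ges-1 called higher and pept-1 called lower. In that comparison 5 of 8 intestine markers had an unadjusted limma p under 0.05, beside 24.2% of all genes tested. So did 8 of 12 germline and oocyte, 5 of 10 neuron, 4 of 8 body wall muscle and 3 of 5 pharynx markers. Of the tested hypodermis markers 2 of 6 did, and of the tested sperm markers 0 of 2. Between the treatments pept-1 was called higher and ges-1 and cpr-6 lower, where 3.74% of all genes tested were called higher and 6.87% lower. There 36.3% of all genes tested had an unadjusted limma p under 0.05. So did 11 of 12 germline and oocyte, 6 of 10 neuron, 7 of 8 body wall muscle and 3 of 5 pharynx markers. Of the intestine markers 4 of 8 did, of the tested hypodermis markers 3 of 6 and of the tested sperm markers 0 of 2. The hypodermis markers had a median of -0.05 under daf-2 RNAi, with col-19 called higher, and col-19 was called lower between the treatments. The part of these tissues in the results was not tested.

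For 3 of the genes, the tested genes with the closest profile were looked up, by the root mean square difference of log2 values centred on each gene's own mean over the 6 libraries, among the 9099 genes that averaged 5 CPM or more. For aakg-4 the closest were C08E8.10 (0.149), Y43F8A.3 (0.151) and lec-8 (0.156), where the median over all compared genes was 0.972. For par-4 they were tlf-1 (0.0274), aptf-3 (0.0478) and swan-2 (0.0496), with a median of 0.637 over all. For aak-2 they were suox-1 (0.0677), F20D1.3 (0.0751) and vha-12 (0.0760), with a median of 0.674. The nearest genes of aakg-4 were thus farther from it than those of par-4 and aak-2 were from theirs. These differences describe 6 libraries and were not tested.

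On the genome build WBcel235 the alpha gene aak-1 (WBGene00019801) lies on chromosome III at 8756990 to 8761090 on the minus strand, and aak-2 (WBGene00020142) on chromosome X at 16796087 to 16803398 on the plus strand. The beta gene aakb-1 (WBGene00010115) lies on chromosome X at 13755769 to 13759391 and aakb-2 (WBGene00012928) on chromosome III at 11237143 to 11239204, both on the plus strand. Of the gamma genes, all on the minus strand, aakg-4 (WBGene00020135) lies on chromosome X at 2314894 to 2319338, aakg-2 (WBGene00020633) on X at 16866046 to 16869031, aakg-1 (WBGene00013732) on III at 12538664 to 12575401 and aakg-5 (WBGene00011276) on II at 9971035 to 9975125. On the plus strand lie par-4 (WBGene00003919), on chromosome V at 18098687 to 18106405, and strd-1 (WBGene00013132), on III at 10947455 to 10951055. All 10 are protein-coding, and a count covers all exons of a gene without telling its transcripts apart.

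Exons of 4 of the genes overlap those of a neighbour. For aakg-4 the overlap is 21 of 2340 exon bases with hum-6 on the opposite strand, whose level was 0.77 to 7.97 CPM and whose log2 change under daf-2 RNAi was 0.22, and 3 bases with a noncoding gene without a count. For aak-1 it is 100 of 2337 bases with sma-2, also on the opposite strand, at 3.03 to 11.2 CPM. The sma-2 values went the other way from aak-1, with 0.46 under daf-2 RNAi and -0.80 between the treatments, and neither passed. For aak-2 it is 78 of 2431 bases with mec-4 on the opposite strand, at 0.15 to 0.30 CPM, and for aakb-2 109 of 1950 bases with a noncoding gene on the same strand, at 0.14 to 0.44 CPM. The library kit keeps the strand, but whether the counting used it is not given in the sources used here, so reads in those shared bases are uncertain.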

How the data were processed

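Stranded poly(A) libraries were made from whole animals, per the labels' protocols. The authors list build WBcel235 and the tools TopHat2 2.0.13, DESeq2 1.10.1, bcl2fastq 2.15.0.4, Cufflinks 2.2.1 and cutadapt 1.7.1, per the submitters' processing notes. The deposited table holds the authors' whole-number counts per gene and library, and the authors' log2 fold changes, standard errors and adjusted p-values for each comparison, quoted only where named. Of its 46748 genes, 494 (1.06%) hold no value and were left out. The 6 columns of normalised counts were not used.

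The alternative written for columns that cannot be taken as counts throughout was used. Genes above 0.348 CPM, before scaling by TMM, in at least 2 libraries (minimum count 10, total 15) were kept, 14378 genes with 99.96% of counts. They were scaled by TMM (factors 0.922 to 1.04), and limma 3.58.1 (R 4.3.3) was run on log2(CPM + 1) with group and repeat as terms (a block). The fit was first tried on simulated counts scaled by library total, with each treatment effect equal in both repeats. Treatment effects differed between the repeats of these data, so that trial does not show how reliable the calls are here. All 6 libraries shared 1 estimate of the spread per gene, from 2 residual degrees of freedom and 8.69 prior ones that limma took from all genes, so most of it is borrowed from other genes. Centred on their group means, libraries of one repeat deviated together over genes (r = 0.891, 0.807 and 0.812), and the series' design text says that each repeat held 1 sample of every kind. Sequencing depth was 25474328 to 32886440 counts per library, which limits precision only for low genes. With the repeat as a term, the p-values set a group difference against how much it varied from repeat to repeat, with 2 repeats. The shared difference between the repeats is taken out of that spread.

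Named genes are the 10 members, pathway list genes that passed in any comparison with crtc-1, crh-1, pod-2, unc-51 and mop-25.2 whatever their values, both RNAi targets, and the 3 nearest profiles of aak-2, par-4 and aakg-4. Marker genes that passed were named after their values were seen. Members and lists were chosen with earlier results of these data known. Lengths and positions come from the Ensembl annotation of WBcel235, which gave a length for 99.2% of tested genes. Alternatives were other scalings, a pseudocount of 0.25, no filter, a mean of at least 5 CPM, no repeat term, removal of the length trend, and each library left out.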

Additional observations from a re-analysis of the deposited data

How the results depend on the processing

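Of 420 alternative values for the fold changes of the 10 genes, 387 kept their direction and side of the threshold, 17 lost a call, 4 gained one and 12 changed sign. Part of this agreement was fixed in advance. Another filter, no repeat term, or leaving out a library of the group outside the comparison cannot move a log2 change. A call could be lost only where the main fit had one. All 17 losses thus fell on aakg-4 in the first comparison and aakg-4, aakb-1 and par-4 in the third. With no replicate block, 0 genes were called in each of the 3 comparisons, and 0 of the 10 genes, beside 1070, 1 and 1526 genes with it (daf-2 RNAi against the empty vector, cav-1 RNAi against the empty vector, cav-1 against daf-2 RNAi). With genes of low count kept, 187 and 342 genes were called in the first and the third comparison, and 0 and 1 of the 10. A mean of at least 5 CPM left 559 genes called in the first. Size factors gave 20 and 3142 in the second and the third. Factors from all genes with a count, chosen after seeing the data, gave 64 and 3236, and a pseudocount of 0.25 gave 2 in the second. That scaling split the third into 1693 higher and 1543 lower, against 538 and 988. Scaling by total counts split the first into 755 higher and 409 lower, a mean of at least 5 CPM into 388 and 171, against 620 and 450. The median of all genes moved by up to 0.15 with that filter, to -0.16 in the first and 0.14 in the third comparison. With the length trend removed, 2 of the 10 differed between repeats.

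Leaving out each library in turn, where a lone library is taken to vary like the other groups, called 568 to 1780, 0 to 123 and 28 to 3666 genes in the 3 comparisons. The extremes came without repeat 2 of daf-2 RNAi (568) and repeat 1 of the empty vector (1780) in the first, without repeat 2 of cav-1 RNAi (0) and repeat 2 of the empty vector (123) in the second, and without repeat 1 (28) and repeat 2 (3666) of cav-1 RNAi in the third. The second comparison had 62, 71 and 110 genes without repeat 1 or 2 of daf-2 RNAi or repeat 1 of the empty vector. The third had 842 and 831 without either daf-2 library, and 3079 and 3059 without either control. Of the 10 genes it called 0 to 1 in the first, 0 to 5 in the third (5 without repeat 2 of cav-1 RNAi, 1 without repeat 2 of daf-2 RNAi, 0 without repeat 1 of either), and 1 to 7 between repeats. Changes of sign were among small values. For daf-2 RNAi against the empty vector, leaving out libraries gave log2 changes of -0.485 to 0.0394 for aakb-2, -0.0724 to 0.187 for aakg-1, -0.0924 to 0.146 for crh-1 and -0.16 to 0.15 for unc-51. Size factors gave -0.0188 for aakg-1 and -0.0490 for crh-1, and unc-51 was 0.13 with the length trend removed and 0.0854 with total counts. For cav-1 RNAi against the empty vector the ranges were -0.19 to 0.39 for aakb-2, -0.13 to 0.26 for strd-1, -0.19 to 0.25 for pod-2 and -0.23 to 0.85 for daf-2, and pod-2 was -0.0395 with the length trend removed. For cav-1 against daf-2 RNAi they were -0.288 to 0.0482 for aak-2, -0.0197 to 0.240 for aakg-1 and -0.336 to 0.0812 for aakg-5, and aakg-1 was -0.13 with the length trend removed. The causes were not tested. The planned count-based tests were not run because the unit check did not take the columns as counts.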
